A study of Mus musculus with 8 samples.

Results

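The NMDA receptor is a glutamate-gated cation channel, and the mouse genome encodes its subunits in 7 genes, Grin1, Grin2a, Grin2b, Grin2c, Grin2d, Grin3a and Grin3b. These genes, set by name and not by their values, are described here in RNA sequencing of the adult mouse striatum, out of 31417 genes in the deposited count table. Of the 7, 6 passed the filter on low counts, and Grin3b did not. The libraries came from 4 wild-type mice (the controls of the knockout line) and 4 Dclk3 knockout mice, all 12 months old, with 1 striatum per library. Dclk3 encodes a doublecortin-like kinase enriched in the striatum. The sources used here do not name the deleted part of the gene, the strain background or the sex of the mice. The comparison asks how transcript levels in the striatum differ when Dclk3 is knocked out.

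An NMDA receptor is assembled around obligatory GluN1 subunits, the product of Grin1, which bind the co-agonist glycine or D-serine. The GluN2 subunits, products of Grin2a to Grin2d, bind glutamate and set the speed of the current, its block by magnesium and the scaffolds that hold the receptor at the synapse. The GluN3 subunits, products of Grin3a and Grin3b, bind glycine and lower calcium entry. In the striatum the receptors on spiny projection neurons receive glutamate from cortex and thalamus and are mostly built with GluN2A and GluN2B, while GluN2D is known from interneurons and GluN2C from astrocytes.

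In the GRCm38 (mm10) assembly Grin1 lies on chromosome 2 at 25291181 to 25319187, Grin2a on chromosome 16 at 9567898 to 9995560, Grin2b on chromosome 6 at 135713233 to 136173511, Grin2c on chromosome 11 at 115249169 to 115267243, Grin2d on chromosome 7 at 45831883 to 45878378 and Grin3a on chromosome 4 at 49661611 to 49845744, all on the minus strand. Grin3b, on chromosome 10 at 79970715 to 79977190, is read from the plus strand. The transcript sequences below are shown because a ratio of read counts between related genes is only as good as the reads that can be told apart. They are coding DNA read from the GENCODE transcripts of that assembly, 5′ to 3′. Shown is the 30-base window of the Grin1 reading frame that is most alike in the other 6 genes. It codes for most of the conserved motif of the third transmembrane segment, which lines the channel gate of ionotropic glutamate receptors. Capitals mark bases that differ from Grin1.
Grin1: tacactgccaacctggcagccttcctggtg
Grin2a: tacacAgccaacctggcTgccttcAtgAtC
Grin2b: tacactgccaacTtAgcCgccttcAtgAtC
Grin2c: tacacGgccaaTctggcagccttcAtgAtC
Grin3a: tacacAgcGaacTtggcTgcTGtcAtggtA
Grin3b: tacacAgccaacctggcagcTGtcAtggtC
Even in this most alike window each gene shown differed from Grin1 at 5 to 8 of the 30 bases. Over the whole coding sequence, Grin2a and Grin2b were identical at 65.5% of aligned bases, and their longest identical run was 24 bases. This is the run:
Grin2a and Grin2b: agtgacaagaagttccagagacct
No stretch of 50 bases was shared between the annotated transcripts of any pair of the genes. The sources used here do not name the read length.

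Total counts ran from 24441242 to 37145559 per library. CPM, the unit used below, is edgeR's count per library size, with the library sizes scaled by TMM (a trimmed mean over genes). The targeted gene, Dclk3, averaged 94.7 CPM ± 15.8 against 22.7 CPM ± 3.55 (SD, n = 4 each), wild type first, with all knockout libraries below all wild-type libraries. The tissue label was matched by 10 summed spiny neuron markers, at 4377 to 5244 CPM in every library. The 5 summed neuroblast and progenitor markers were at 41.9 to 54.8 CPM. Cortical glutamatergic markers, 6 genes summed, were also high, at 977 to 1423 CPM in wild type and 734 to 1193 CPM in the knockout. The dissections differed. Summed choroid plexus markers spanned 38.4 to 2889 CPM over the wild-type libraries, with replicate 4 the highest in their score, and 49.1 to 238 CPM over the knockout libraries. Summed thalamic or other subcortical glutamatergic markers spanned 76.2 to 158 CPM in wild type and 78.9 to 290 CPM in the knockout, where replicate 4 had the highest score. Oligodendrocyte markers lay above 0 in the knockout in 6 of 6 genes (median log2 fold change 0.19) and astrocyte markers in 6 of 7 (0.15), with 0 past the threshold used below. Cortical glutamatergic markers lay below 0 in 5 of 6 genes (median -0.17), also with 0 past it. What part these shifts have in the subunit values was not tested. Wild-type replicate 4 and knockout replicate 4 lay at the ends of the first principal component, and values without both are given beside the results they move.

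None of the 6 tested subunit genes passed the threshold between the genotypes, in either direction. The threshold was 0.05 after Benjamini-Hochberg adjustment over 16511 genes in edgeR's quasi-likelihood fit, and 0.00606% of all genes tested passed it. Each of the 6 had an adjusted p of 0.999, and 0 of the 6 had an unadjusted p under 0.05, against 3.76% of all genes. In 0 of the 6 did the 4 knockout values lie wholly above or below the 4 wild-type values, against 1.93% of all genes (1.07% wholly higher and 0.860% wholly lower). Log2 fold changes, knockout over wild type, ran from -0.18 to 0.08 with 5 of 6 below 0 and a median of -0.074, beside a median of -0.0011 over all genes.

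**Figure D1:**
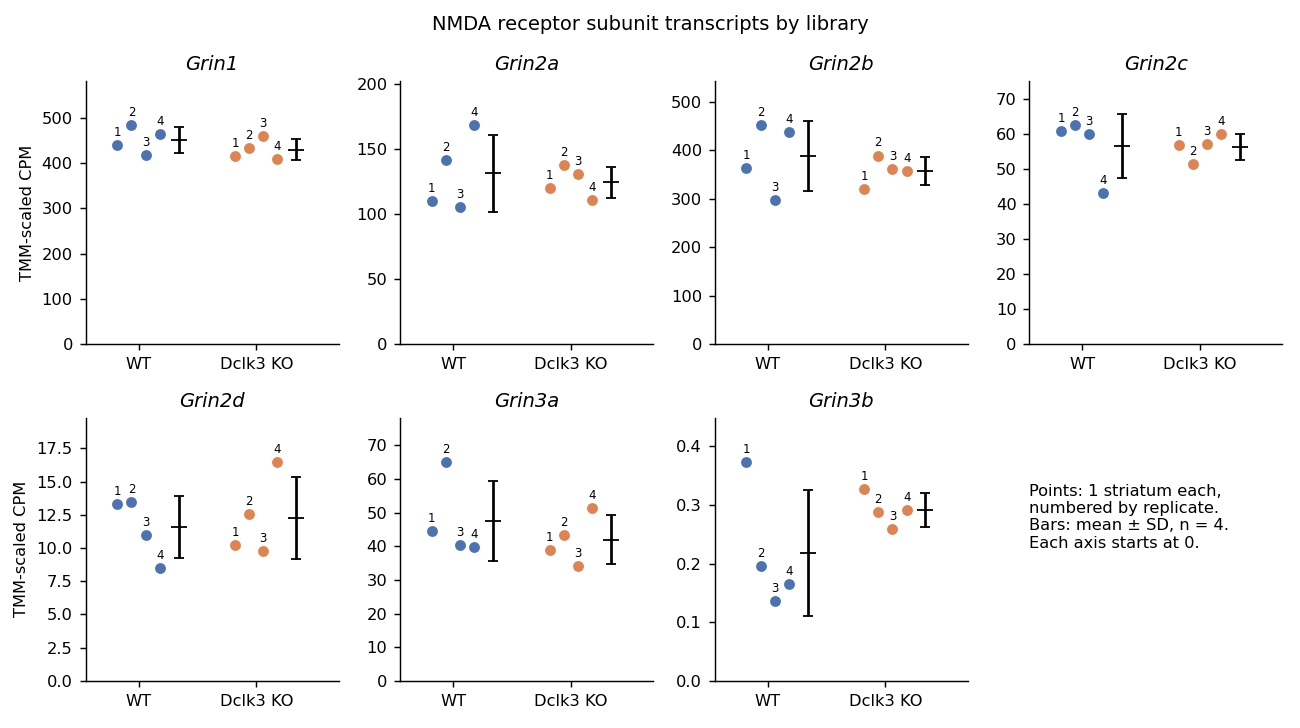
Level of each subunit transcript in TMM-scaled CPM (vertical axes, each starting at 0) in the 4 wild-type and 4 Dclk3 knockout striata, with the mean ± SD beside the points. The genotypes overlap in every panel, and Grin2c in wild-type replicate 4, at 43.2 CPM, sits apart from the other wild-type libraries.

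Grin1, the gene of the obligatory subunit, was the most abundant and the steadiest of the family. It measured 440, 485, 419 and 464 CPM in the wild-type striata (replicates 1 to 4) and 417, 433, 461 and 409 CPM in those of the knockout. The genotypes overlapped. The means were 452 CPM ± 28.7 and 430 CPM ± 22.9 (SD, n = 4 each), which puts the knockout at 95.2% of wild type. Its log2 fold change came to -0.07 (SE 0.07, 95% interval -0.21 to 0.07, or 0.863-fold to 1.05-fold), and -0.03 without the fourth library of both genotypes (adjusted p = 0.952, edgeR). The antisense gene Grin1os shares 1307 exonic bases with Grin1 on the opposite strand, and it had 2 to 10 counts per library.

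Grin2b, which encodes the slow GluN2B subunit that dominates early in development and persists in the striatum, varied more between animals. Its levels were 364, 452, 297 and 438 CPM in the wild-type striata (replicates 1 to 4) and 320, 389, 362 and 357 CPM in those of the knockout. The 2 highest libraries, wild-type replicates 2 and 4, and the lowest, wild-type replicate 3, were all wild type, and the knockout values lay between them. The means were 388 CPM ± 72.1 and 357 CPM ± 28.3 (SD, n = 4 each), with a log2 fold change of -0.12 (SE 0.12, 95% interval -0.39 to 0.15). Single libraries moved this value: it was -0.04 without wild-type replicate 2 and -0.23 without wild-type replicate 3 (unadjusted p = 0.0261, adjusted p = 0.916, edgeR). Without the fourth library of both genotypes it was -0.06 (adjusted p = 0.961, edgeR).

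Grin2a, which encodes the faster GluN2A subunit that rises as synapses mature, was at 110, 142, 106 and 169 CPM in the wild-type striata (replicates 1 to 4) and 120, 138, 131 and 111 CPM in those of the knockout. Wild-type replicate 4 was the highest library and wild-type replicate 3 the lowest. The means were 132 CPM ± 29.6 and 125 CPM ± 11.9 (SD, n = 4 each). Its log2 fold change came to -0.08 (SE 0.15, 95% interval -0.41 to 0.26). The sign rested on wild-type replicate 4: without it the log2 fold change was 0.07 (adjusted p = 0.954, edgeR), and without the fourth library of both genotypes it was 0.12 (adjusted p = 0.849, edgeR).

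Grin2c, the gene of a subunit with weak magnesium block known from astrocytes and cerebellar granule cells, measured 61.0, 62.7, 60.2 and 43.2 CPM in the wild-type striata (replicates 1 to 4) and 56.8, 51.4, 57.2 and 60.0 CPM in those of the knockout. Apart from wild-type replicate 4, the libraries spanned 51.4 to 62.7 CPM. The means were 56.7 CPM ± 9.11 and 56.4 CPM ± 3.62 (SD, n = 4 each), and the knockout was at 99.3% of wild type (log2 fold change -0.01, SE 0.11, 95% interval -0.25 to 0.23). Without wild-type replicate 4 the log2 fold change was -0.12 (adjusted p = 0.774, edgeR), and without the fourth library of both genotypes it was -0.15 (unadjusted p = 0.0436, adjusted p = 0.588, edgeR).

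Grin2d, the gene of the slowest GluN2 subunit, was at 13.3, 13.5, 11.0 and 8.52 CPM in the wild-type striata (replicates 1 to 4) and 10.2, 12.5, 9.80 and 16.5 CPM in those of the knockout. The highest library, knockout replicate 4, was 1.94 times the lowest, wild-type replicate 4. The means were 11.6 CPM ± 2.32 and 12.3 CPM ± 3.07 (SD, n = 4 each), with a log2 fold change of 0.08 (SE 0.19, 95% interval -0.35 to 0.51). The direction turned when either of these libraries was left out, to -0.04 for wild-type replicate 4 and -0.09 for knockout replicate 4. With neither in the fit it was -0.22 (adjusted p = 0.717, edgeR). An antisense gene, Gm45441, shares 643 exonic bases with Grin2d on the opposite strand and was at 2.58 to 6.09 CPM. The sources used here do not say whether strand was used in counting, so reads of the overlap could have gone to either.

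Grin3a, whose product GluN3A is known for limiting synapse maturation in young brain, was at 44.4, 65.1, 40.4 and 39.8 CPM in the wild-type striata (replicates 1 to 4) and 38.9, 43.4, 34.1 and 51.2 CPM in those of the knockout. Wild-type replicate 2 was the highest library and knockout replicate 3 the lowest. The means were 47.4 CPM ± 12.0 and 41.9 CPM ± 7.27 (SD, n = 4 each). The log2 fold change of -0.18 (SE 0.18, 95% interval -0.60 to 0.24) was the one farthest from 0 among the 6, and it moved to 0.01 without wild-type replicate 2 and to -0.37 without the fourth library of both genotypes (adjusted p = 0.686, edgeR).

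Grin3b, whose product GluN3B is known from motor neurons, was close to the limit of detection. It had 11, 7, 4 and 6 counts in the wild-type striata (replicates 1 to 4) and 8, 8, 9 and 8 counts in those of the knockout, which is 0.136 to 0.374 CPM beside a floor of 3 counts at 0.0822 to 0.123 CPM. An exact two-sided permutation test of its CPM over the 70 assignments of the libraries gave p = 0.2, with the groups overlapping. Tmem259, which shares 1059 exonic bases with it on the opposite strand, was at 65.5 to 81.1 CPM, so that some or all of the Grin3b counts could be reads of that gene.

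**Figure D2:**
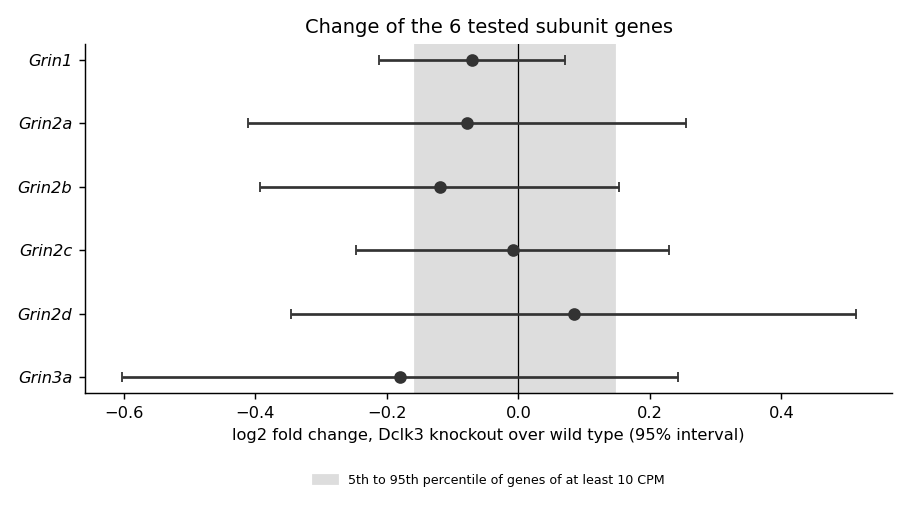
Log2 fold change of the 6 tested subunit genes, Dclk3 knockout over wild type (horizontal axis), with 95% intervals from the edgeR quasi-likelihood fit. All 6 intervals cross 0. The grey band holds the 5th to 95th percentile of the fold changes of 10114 genes of at least 10 CPM, -0.16 to 0.15.

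The intervals differed in width. The Grin1 interval ran from 0.863-fold to 1.05-fold, whereas that of Grin3a reached down to 0.658-fold and that of Grin2d up to 1.43-fold. The 5 accessory subunit genes varied more between wild-type animals than most genes did. Their wild-type SD on the log2 CPM scale was 0.25 to 0.33, in the 93.7 to 97.5 percentile of 10114 genes of at least 10 CPM, whereas Grin1, at 0.092, was in the 38.6 percentile. In the knockout the SD was 0.14 for Grin2a (80.0 percentile) and 0.12 for Grin2b (69.6 percentile), against 0.32 and 0.28 in wild type. For Grin2c it was 0.094 (55.9 percentile), against 0.25 in wild type. That wild-type SD of Grin2c rested on replicate 4, at 43.2 CPM beside 60.2 to 62.7 CPM in the other wild-type libraries. The knockout SD stayed wide for Grin3a, at 0.25 (95.8 percentile), and for Grin2d, at 0.34 (98.3 percentile). Whether the spread differs between the genotypes was not tested.

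The ratio of Grin2a to Grin2b, a common summary of how GluN2 make-up shifts with maturation and activity, did not differ between the genotypes beyond the spread of the animals. It was 0.303, 0.314, 0.355 and 0.385 in the wild-type striata (replicates 1 to 4) and 0.374, 0.354, 0.362 and 0.311 in those of the knockout, in read counts. The 4 knockout values all fell inside the wild-type range, and the highest library was 1.27 times the lowest. The means were 0.339 ± 0.0379 and 0.350 ± 0.0276 (SD, n = 4 each), a difference of 0.05 on the log2 scale with an exact two-sided permutation p of 0.743 (adjusted p = 0.960 over 6 ratios, smallest possible p 0.0286). Without the fourth library of both genotypes the difference was 0.17 on the log2 scale (adjusted p = 0.360), in a design whose smallest exact permutation p is 0.1. The ratio was steadier than either gene, since Grin2a and Grin2b on their own spanned 1.60-fold and 1.52-fold.

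Each accessory subunit was also set against Grin1 in the same library. Grin2b stood at 0.854 ± 0.110 counts per Grin1 count in wild type and 0.831 ± 0.0636 in the knockout, and Grin2a at 0.290 ± 0.0531 and 0.290 ± 0.0201 (SD, n = 4 each). The ratio to Grin1 was 0.126 ± 0.0229 and 0.131 ± 0.0126 for Grin2c, and 0.104 ± 0.0209 and 0.0982 ± 0.0211 for Grin3a. Grin2d had the widest spread, at 0.0184 to 0.0302 in wild type and 0.0213 to 0.0403 in the knockout. The genotypes overlapped in all 5 ratios, and the exact permutation p ran from 0.600 to 0.971 (adjusted p from 0.960 to 0.971 over the 6 ratios). Without the fourth library of both genotypes the log2 difference went from 0.01 to 0.16 for Grin2a to Grin1 and from -0.09 to -0.31 for Grin3a to Grin1.

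**Figure D3:**
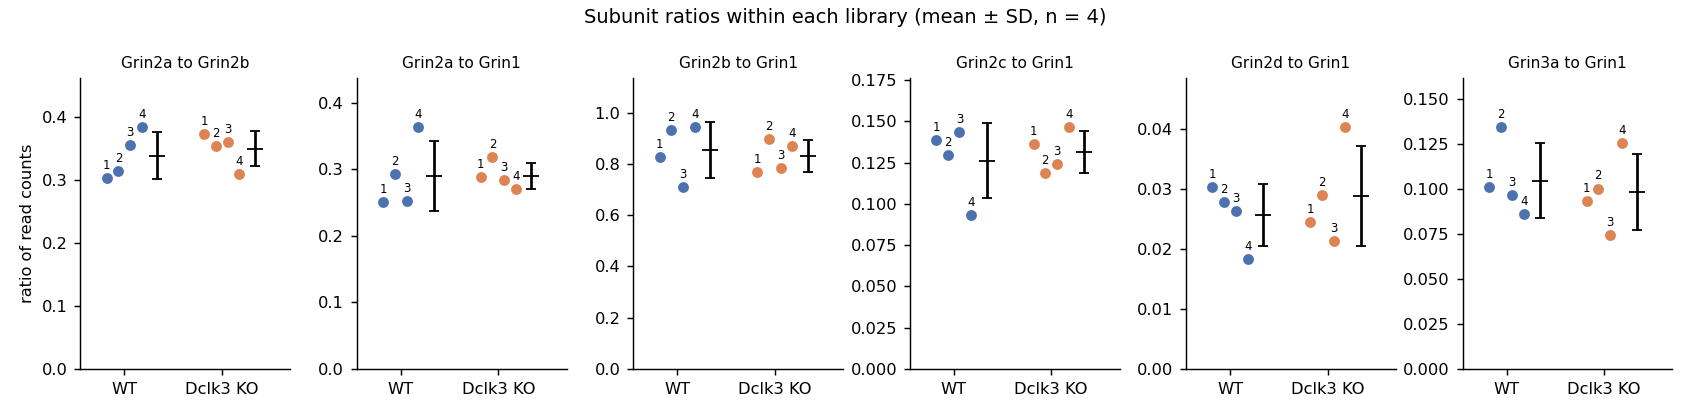
Ratio of read counts within each library for 6 pairs of subunit genes (vertical axes, each starting at 0) in 4 wild-type and 4 Dclk3 knockout striata, with the mean ± SD. The 4 knockout values of the Grin2a to Grin2b ratio, 0.311 to 0.374, lie inside the wild-type range of 0.303 to 0.385.

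Levels can be compared between genes only per length, and the annotated lengths of these genes leave a wide margin. All annotated exons of Grin2b cover 24842 bases and those of Grin2a 17933 bases, against 7484 and 4395 bases in the shortest transcript that holds the longest reading frame. The 4395 bases of Grin2a are all coding, whereas 4449 of the 7484 bases of Grin2b and 3720 of the 4279 bases of Grin2c are. Division by this shorter length raises Grin2a beside the others. By all exons, the wild-type levels in CPM per kilobase were 46.6 ± 2.96 for Grin1, 15.6 ± 2.90 for Grin2b, 11.3 ± 1.81 for Grin2c, 7.34 ± 1.65 for Grin2a, 3.87 ± 0.974 for Grin3a, 1.74 ± 0.349 for Grin2d and 0.0661 ± 0.0324 for Grin3b (SD, n = 4 each). Of the neighbours in this order, Grin2b and Grin2c overlapped over the 8 libraries, and so did Grin2c and Grin2a. By the shorter transcripts Grin2a, at 30.0 CPM per kilobase ± 6.74 in wild type, was above Grin2c, at 13.3 ± 2.13, and no neighbours overlapped. Which of Grin2a and Grin2c was the higher therefore depended on the length used, while Grin1 first, Grin2b second, and Grin3a, Grin2d and Grin3b in that order last held with both.

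Within the GluN2 genes Grin2b had the highest value per length in every library with both lengths, though by all exons wild-type replicate 3 was close to a tie with Grin2c, at 38.03% against 37.99%. By all exons it made up 43.2% ± 4.17 of the GluN2 sum per length in wild type and 41.8% ± 1.85 in the knockout (SD, n = 4 each). By the shorter transcripts its share was 53.1% ± 2.31 and 52.0% ± 1.37. The share of Grin2a was 20.3% ± 3.53 and 20.3% ± 1.77 by all exons, and 30.6% ± 3.29 and 31.0% ± 1.99 by the shorter transcripts. All shares and the GluN2 sum by the shorter transcripts rest on a Grin2a length of coding bases only. The share of Grin2c was 31.6% ± 6.37 and 32.6% ± 2.69 by all exons, and 14.0% ± 3.60 and 14.4% ± 1.55 by the shorter transcripts. Grin2d held 3.47% to 7.09% by all exons over the 8 libraries. The sum of the GluN2 genes per length was 0.771 ± 0.0345 of Grin1 in wild type and 0.776 ± 0.0432 in the knockout by all exons, and 0.917 ± 0.0853 and 0.912 ± 0.0485 by the shorter transcripts.

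**Figure D4:**
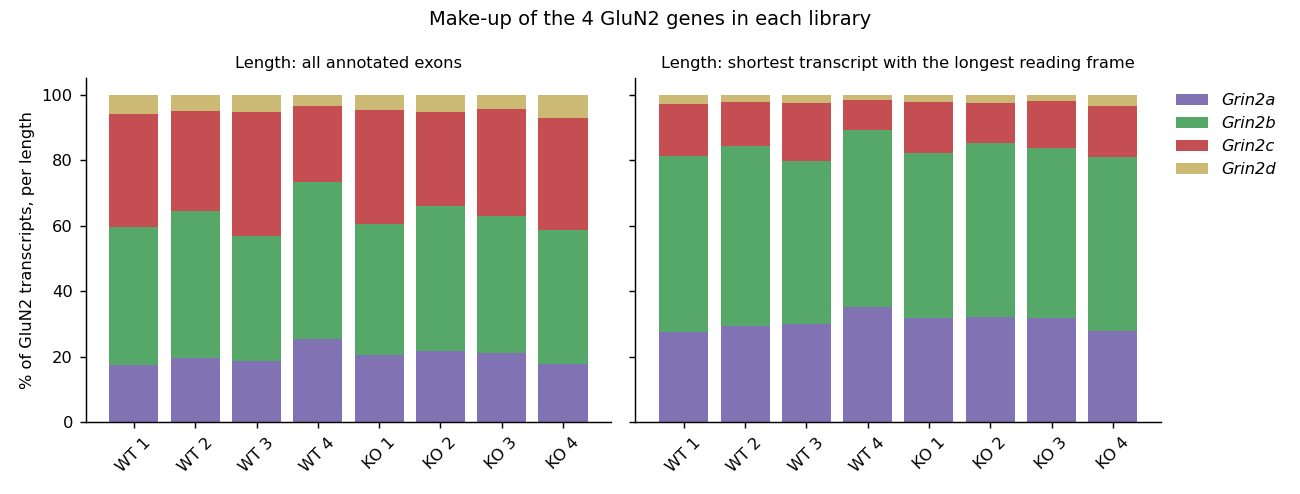
Share of each GluN2 gene in the sum of the 4 GluN2 genes per length (vertical axis, percent) in each of the 8 libraries, with CPM divided by the length of all annotated exons (left) or of the shortest transcript with the longest reading frame (right). Grin2b is the largest block in every bar, with Grin2c close to it in wild-type replicate 3 on the left, and the Grin2c block is smallest in wild-type replicate 4, at 23.2% and 9.28%.

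Some pairs of subunits moved together over these 8 libraries, though no pair passed adjustment. Over the 8 libraries, log2 CPM of Grin2a and Grin2b rose and fell together (Pearson's r = 0.82, exact permutation p = 0.0126, Spearman's rho = 0.81, p = 0.0218, and r = 0.67 without the 2 libraries farthest from the median of Grin2a). Grin1 and Grin2b gave r = 0.80 (exact permutation p = 0.0183, rho = 0.81, p = 0.0218, and r = 0.80 without 2 libraries). Grin2d and Grin3a gave r = 0.71 (exact permutation p = 0.0460, rho = 0.90, p = 0.00456, and r = 0.81 without 2 libraries). Grin2a and Grin2c were opposed at r = -0.76 (exact permutation p = 0.0294), but rho was -0.45 (p = 0.267) and r was -0.31 without wild-type replicates 3 and 4, so that relation rested on those libraries. After adjustment over the 15 pairs none passed 0.05, the lowest adjusted p being 0.137 for Pearson's r and 0.0685 for Spearman's rho.

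Grin2a and Grin2b were also set beside other genes with long exons. For each library a score was taken as the median log2 deviation of 1307 genes with at least 10000 bases of annotated exons and at least 10 CPM, the NMDA receptor genes left out. This score was chosen after the values of Grin2a and Grin2b were seen, so its relations to them are a description and carry no test. It was -0.0040, 0.0384, -0.103 and 0.0706 in the wild-type striata (replicates 1 to 4) and -0.0162, 0.0174, 0.0055 and -0.0123 in those of the knockout. Wild-type replicates 2 and 4, the highest in Grin2b and Grin2a, were also the highest in this score, and wild-type replicate 3 was the lowest in all 3 measures. Across libraries the score and Grin2b gave r = 0.91 (rho = 0.95, and r = 0.95 without wild-type replicates 3 and 4). For Grin2a r was 0.86 (rho = 0.90, and r = 0.86 without those 2 libraries). For the ratio of Grin2a to Grin2b r was 0.07 (rho = 0.14, and r = -0.17 without those 2 libraries). With the score as a covariate in the edgeR model, also added after these values were seen, the standard error of the Grin2b fold change went from 0.12 to 0.059 and that of Grin2a from 0.15 to 0.078. The log2 fold changes were then -0.097 and -0.052, with adjusted p of 0.946 and 0.966 (edgeR). As the score was chosen with the values of both genes known, the narrower errors of this fit are a description as well. Their cause was not tested.

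**Figure D5:**
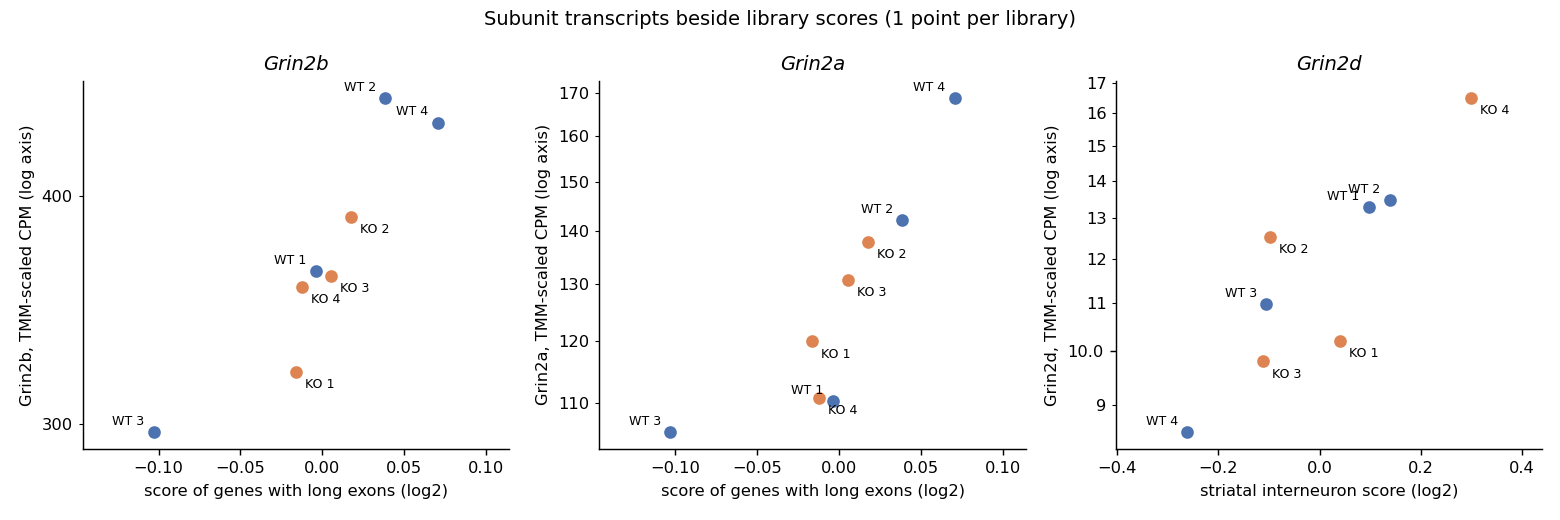
Level of Grin2b and Grin2a (vertical log axes, TMM-scaled CPM) against the score of 1307 genes with long exons, and of Grin2d against the striatal interneuron score, 1 point per library. Grin2b and Grin2a are lowest in wild-type replicate 3 and highest in wild-type replicates 2 and 4, and Grin2d runs from 8.52 CPM in wild-type replicate 4 to 16.5 CPM in knockout replicate 4.

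Subunit levels were also compared with marker scores of the cell types a dissection could hold, and none of those relations passed 0.05 after adjustment over 63 relations. The 63 also hold the relations of the score of genes with long exons, which was chosen after the values were seen and is left out of this statement. The interneuron score, the mean log2 deviation of 8 markers including Pvalb, Sst, Npy and Chat, was 0.0969, 0.138, -0.106 and -0.261 in the wild-type striata (replicates 1 to 4) and 0.0413, -0.0973, -0.112 and 0.300 in those of the knockout. Wild-type replicate 4 was lowest and knockout replicate 4 highest both in the score and in Grin2d, with r = 0.88 (exact permutation p = 0.00372, adjusted p = 0.109 over 63 relations, rho = 0.93 with p = 0.00223, and r = 0.59 without those 2 libraries). The score of 6 thalamic or other subcortical markers, also lowest and highest in those libraries at -0.584 and 0.954, gave r = 0.77 with Grin2d (exact permutation p = 0.0255, adjusted p = 0.238, rho = 0.74 with p = 0.0458), and r was 0.33 without them. Cortical glutamatergic markers gave r = -0.76 with Grin2d (exact permutation p = 0.0264, adjusted p = 0.238, rho = -0.64 with p = 0.0962, and r = -0.09 without those 2 libraries). Grin2c gave r = 0.36 with the astrocyte score (exact permutation p = 0.398, adjusted p = 0.613, rho = 0.095, and r = -0.51 without those 2 libraries). With the interneuron score it gave r = 0.73 (exact permutation p = 0.0384, adjusted p = 0.242, rho = 0.62, and r = 0.61 without them). With the neuroblast and progenitor score it gave r = 0.70 (exact permutation p = 0.0344, adjusted p = 0.241, rho = 0.81). In bulk tissue a change in the number of cells of a type and in the RNA per cell cannot be told apart. The ratio of Grin2a to Grin2b was opposed to the interneuron score (r = -0.82, exact permutation p = 0.0152, adjusted p = 0.191, rho = -0.79 with p = 0.0279, and r = -0.70 without wild-type replicate 4 and knockout replicate 4). The cortical score, which was 0.361 in wild-type replicate 4 and -0.532 in knockout replicate 4, gave r = 0.74 with Grin2a (exact permutation p = 0.0312, adjusted p = 0.241, rho = 0.76 with p = 0.0368, and r = 0.63 without those 2 libraries). Grin1 was opposed to the oligodendrocyte score (r = -0.85, exact permutation p = 0.00692, adjusted p = 0.109, rho = -0.83 with p = 0.0154, and r = -0.62 without wild-type replicate 2 and knockout replicate 4). What part these other cells have in the subunit values was not tested.

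Among 9889 other genes of at least 10 CPM, those whose pattern over the 8 libraries was most like that of each subunit gene are given as a description. For Grin1 they included Srek1 (r = 0.98), a splicing regulator, and Pi4ka (0.98), a phosphatidylinositol kinase. For Grin2b they included Zfp704 (0.99), a zinc finger gene, and Ep400 (0.99), a chromatin remodeller. For Grin2a they were Spast, Sort1 and Mtmr1 (0.98 each), of which Spast encodes the microtubule-severing protein spastin and Sort1 the sorting receptor sortilin. Grin2c was most like Cacybp, Rpl41 and Phb2 (0.96 each), the ribosomal protein gene Rpl41 and the mitochondrial prohibitin gene Phb2 among them. Grin2d was most like Kirrel3 (0.97), an adhesion molecule gene, C1qc (0.96), a complement gene of microglia, and Myh7 (0.96), a myosin gene. Grin3a was most like Tiam1 (0.99), a Rac exchange factor that binds NMDA receptors, Igsf3 (0.99) and Timp2 (0.98). The ratio of Grin2a to Grin2b ran most closely with Snhg14, Nkiras1 and Krt222 (0.97 each) and most opposed to Sox11 (-0.97), a transcription factor of young neurons, Gpr17 (-0.96), a receptor of oligodendrocyte precursors, and Trim62 (-0.95). With 8 libraries and so many genes, values of this size are reached by the best of many, and they carry no test.

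Genes that act with the receptor also gave no calls between the genotypes. Of 10 scaffold and trafficking genes, 0 passed the threshold in either direction, 5 lay above 0 and 5 below, and the median log2 fold change was 0.0094. Dlg4, the gene of the scaffold PSD-95 that holds GluN2 tails at the synapse, is outside the naming rule and was chosen after its values were seen. It averaged 888 CPM ± 51.9 against 918 CPM ± 40.6 (SD, n = 4 each), wild type first. Those with the smallest p were Neto1, an auxiliary protein gene (log2 fold change -0.061), Dlg2, the gene of PSD-93 (0.062), Kif17, a motor that carries GluN2B (-0.060), and Nsmf, which encodes the messenger protein Jacob (-0.055). Of 8 kinase and phosphatase genes 0 passed, 4 lay above 0 and 4 below, with a median of 0.0014. Camk2b, a subunit of the kinase that binds GluN2B, had -0.12 (1135 CPM ± 77.1 against 1043 CPM ± 25.4, SD, n = 4 each), Ptk2b, a tyrosine kinase gene, -0.075, Ptpn5, the striatal phosphatase that acts on GluN2B, 0.10, and Fyn, the kinase of GluN2 tyrosines, 0.061.

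For the co-agonists glycine and D-serine, 10 of 12 listed genes were tested, 0 passed in either direction, 6 lay above 0 and 4 below, and the median was 0.080. The glycine transporter gene Slc6a9 averaged 70.5 CPM ± 6.29 against 79.3 CPM ± 10.8 (SD, n = 4 each), wild type first, which gave a log2 fold change of 0.17. Ddo, on this list though its product is the oxidase of D-aspartate and not of these co-agonists, had 0.28. Gldc, which breaks glycine down, had 0.14, and Slc1a4, a neutral amino acid transporter that carries serine, -0.17. All 4 intervals included 0. The untested ones were Dao and Slc6a5, which did not pass the filter on low counts.

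The other ionotropic glutamate receptor genes gave 0 calls as well. The 4 AMPA receptor genes had a median log2 fold change of 0.061, with Gria4 at 0.11, Gria2 at 0.074, Gria3 at 0.048 and Gria1 at -0.048. The 5 kainate receptor genes had a median of -0.10, with Grik1 at 0.14, Grik5 at -0.10, Grik4 at -0.16 and Grik3 at -0.12. Grik1 was the 1 of these 9 genes whose genotypes did not overlap, against 1.93% of all genes tested. It was at 10.1 to 10.5 CPM in wild type and 11.1 to 12.2 CPM in the knockout, with an adjusted p of 0.999 (edgeR). Whether the NMDA receptor genes differ from these lists in their response was not tested.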

How the data were processed

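The authors deposited 1 table of raw read counts per Ensembl gene, a column per library, which is the unit used here. Per the labels' protocols, poly(A) RNA from 1 striatum per library was made into libraries with a stranded dUTP kit. The submitters' processing notes name bcl2fastq 2.17.1.14 and mm10. The sources used here name no aligner, counter or strand setting.

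Symbols, positions and transcript sequences came from GENCODE M21 (GRCm38), which matched 31292 of 31417 identifiers. Counts were analysed with edgeR 4.0.16 in R 4.3.3 (filterByExpr with a minimum count of 10, TMM, robust quasi-likelihood, genotype as the only term, Benjamini-Hochberg over 16511 genes). CPM are TMM-scaled. Standard errors and intervals derive from the quasi-likelihood statistic. Ratios used an exact permutation test over 70 assignments. Log2 CPM for correlations and scores used a prior count of 2. The floor of 3 counts covers counting error only. The analysis was tested on simulated data.

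The members and lists were chosen with earlier results of these data known. All 7 members are named, with Dclk3, up to 4 genes of smallest p per list and the 3 genes of at least 10 CPM most alike per member or ratio end (Pearson's r). A few items under these rules are not reported here. Within a genotype, every pair of libraries differed beyond sampling noise (chi-square over its degrees of freedom from 7.07 to 32.1). Alternatives were other scalings, filters and tests (DESeq2 1.42.0, limma 3.58.1), the replicate block, a pseudocount, libraries left out and a covariate.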

Additional observations from a re-analysis of the deposited data

Results flagged for a closer look

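In 46 sets of 4 libraries (levels, ratios and marker scores within a genotype), 2 had a library set apart from the other 3 by more than Dixon's 95% critical value, where chance alone flags about 1 in 20. Grin2c in wild-type replicate 4 was at 43.2 CPM, against 60.2 to 62.7 CPM in the other wild-type libraries. The choroid plexus score of the same library was 3.54, against -1.06 to -0.353 in the other wild-type libraries. Over the 8 libraries this score and Grin2c gave r = -0.80 (exact permutation p = 0.0710, adjusted p = 0.247 over 63 relations, rho = -0.31). Without wild-type replicate 4 and knockout replicate 1, r was 0.55. Whether choroid plexus tissue has a part in the Grin2c value was not tested.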

How the results depend on the processing

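Over 17 alternatives for the fold changes and 11 for the ratios, 0 of 102 fold changes and 0 of 66 ratios passed an adjusted p of 0.05, the lowest being 0.588 and 0.360. Since no member passed in any of these, a turned sign is a move across 0 and not a lost call. The fold changes of Grin1 and Grin2b stayed below 0 in all 17. The count of all genes called was 1, with 3 by the DESeq2 Wald test, 3 without the fourth library of both genotypes and 1 to 2 without single libraries (2 without wild-type replicate 1). Without a filter on low counts it was again 1, but the gene was Malat1 and the Dclk3 call was lost. With limma-voom the log2 fold change was 0.049 for Grin2a and -0.032 for Grin2d. Without the fourth library of both genotypes it was 0.12 for Grin2a and -0.22 for Grin2d, the log2 difference of the ratio of Grin2a to Grin2b was 0.17, and that of the ratio to Grin1 was -0.12 for Grin2c and -0.18 for Grin2d. Leaving out single libraries gave log2 fold changes of -0.11 to -0.035 for Grin1, -0.17 to 0.065 for Grin2a, -0.23 to -0.038 for Grin2b, -0.12 to 0.043 for Grin2c, -0.093 to 0.18 for Grin2d and -0.29 to 0.012 for Grin3a. It gave log2 differences of -0.0042 to 0.11 for the ratio of Grin2a to Grin2b, and for the ratios to Grin1 of -0.050 to 0.13 for Grin2a, -0.12 to 0.019 for Grin2b, -0.066 to 0.14 for Grin2c, -0.031 to 0.28 for Grin2d and -0.22 to 0.034 for Grin3a. The causes were not tested. The exact test of a ratio can reach 0.0286 with 3 against 4 libraries, but not below 0.1 with 3 against 3 or 0.125 with the replicate block. After adjustment over the 6 ratios, a lone ratio at 0.0286 would stay above 0.05, so the 0 of 66 says little about the ratios. Same-numbered libraries of the genotypes deviated together at r = -0.276 to 0.0532, and 1 of 8 libraries correlated best with its own number. These values gave no sign of a pairing by number, but with so few libraries they cannot exclude one. With the replicate block the count of calls was again 1, and Grin2c was at 0.0026. Depth limits Grin3b, at 4 to 11 counts.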
